A study of Mus musculus with 3 samples.

Results

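Nonsense-mediated decay (NMD) transcripts were followed in RNA pulled down with Mettl3 or with Zfp217 from nuclei of mouse embryonic stem cells. They are the transcripts that the authors' tables class as nonsense_mediated_decay, and every such entry of both tables was taken. There were 480 of them, from 440 gene symbols, among 13595 transcripts listed in either table.

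NMD is a surveillance pathway that removes mRNAs whose reading frame ends well before the last exon junction. After splicing, a protein complex stays near each junction. The first ribosome that reads the message normally pushes these complexes off. A complex that stays behind, downstream of a stop codon, recruits Upf1 and its partners, and the RNA is degraded. Because this needs translation, it mostly takes place in the cytoplasm, so nuclear RNA can hold NMD transcripts that have not yet met a ribosome. Many genes of RNA-binding proteins make such transcripts on purpose, through a poison exon, and so limit their own protein. Mettl3 is the catalytic subunit of the complex that writes N6-methyladenosine (m6A) on mRNA. Zfp217 is a zinc finger protein found in chromatin complexes.

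The cells were CCE, a mouse embryonic stem cell line, with no genetic change or treatment in the labels. There were 3 groups of 1 library each: RNA from a Mettl3 antibody pulldown (RIP) of nuclear lysate, RNA from a Zfp217 antibody RIP of nuclear lysate, and an input library. No control pulldown was used here. With 1 library per group no difference has a replicate check, and no p-value is given: every ratio compares libraries. The labels do not say whether the libraries came from separate cultures. Levels are in FPKM, fragments per kilobase of transcript, scaled by library size. Depth was estimated at 9500000 fragments for the Mettl3 RIP, 6900000 for the Zfp217 RIP and 5640000 for the input. The tables list only transcripts of at least 1 FPKM in the RIP that are over 1.5-fold above the input or have an input of 0, so a transcript that is not listed is not shown to be absent. Of 8 embryonic stem cell markers, 5 were listed (Pou5f1, Nanog, Sox2, Klf4 and Esrrb), against 1 of 5 fibroblast markers (Fn1, in the Mettl3 table) and 0 of 5 primitive endoderm markers.

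The sequences below show what makes these transcripts NMD transcripts, for 8 that recur in the results. Each pair starts 18 bases before the reading frames part. The upper line is the NMD transcript up to and including its stop codon, which is in capitals, and the lower line is the same number of bases of a protein-coding transcript of the gene. Sequences are GENCODE M21 transcripts matched by Ensembl identifier and are written 5′ to 3′. Spans are those of the NMD transcript on GRCm38, whereas the deposited tables were made on mm9.

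In 5 of the 8, the exon that holds the early stop has the same ends in a protein-coding transcript. They are Cdk4 (chr10:127063609-127067002, plus strand), Sumo2 (chr11:115523102-115536229, minus strand), Papola (chr12:105784743-105838944, plus strand), Becn1 (chr11:101291499-101302238, minus strand) and Mdm2 (chr10:117688895-117710022, minus strand). Cdk4, the G1 kinase that pairs with D-type cyclins, keeps 219 coding bases before its frames part, and its stop is in exon 3 of 7.
Cdk4 ENSMUST00000142558: catcccaatgttgtacggatcTAA
Cdk4 ENSMUST00000006911: catcccaatgttgtacggctgatg
Sumo2 ENSMUST00000021084: aaagcctattgtgaacgggtttgtcaaTGA
Sumo2 ENSMUST00000153892: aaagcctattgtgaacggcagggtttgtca
Papola ENSMUST00000169938: tgttttgatggaatagaggttgcagggTAA
Papola ENSMUST00000109901: tgttttgatggaatagagattgatattttg
Becn1 ENSMUST00000167818: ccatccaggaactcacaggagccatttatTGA
Becn1 ENSMUST00000130916: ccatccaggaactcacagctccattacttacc
Mdm2 ENSMUST00000155285: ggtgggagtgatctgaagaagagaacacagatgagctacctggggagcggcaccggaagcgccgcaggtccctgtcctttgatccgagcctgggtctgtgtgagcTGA
Mdm2 ENSMUST00000020408: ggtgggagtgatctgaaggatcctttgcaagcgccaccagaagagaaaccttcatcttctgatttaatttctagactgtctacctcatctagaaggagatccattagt

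In Azin1 (chr15:38488241-38519169, minus strand), which encodes the antizyme inhibitor of polyamine control, the stop lies in an exon of other ends than in any protein-coding transcript.
Azin1 ENSMUST00000129589: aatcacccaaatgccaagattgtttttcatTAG
Azin1 ENSMUST00000110329: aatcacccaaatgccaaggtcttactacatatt

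In Tra2b (chr16:22246462-22265926, minus strand), a splicing factor with arginine-serine repeats, and Cenpa (chr5:30666974-30674409, plus strand), the histone H3 variant of centromeres, the stop lies in an exon found in no protein-coding transcript of the gene. The Tra2b exon is 276 bases long and that of Cenpa is 54 bases long.
Tra2b ENSMUST00000162413: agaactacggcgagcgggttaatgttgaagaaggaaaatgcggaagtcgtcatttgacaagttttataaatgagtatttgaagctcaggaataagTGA
Tra2b ENSMUST00000161286: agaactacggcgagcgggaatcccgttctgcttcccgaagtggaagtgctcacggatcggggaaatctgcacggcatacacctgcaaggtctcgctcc
Cenpa ENSMUST00000031073: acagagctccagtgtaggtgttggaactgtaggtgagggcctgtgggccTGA
Cenpa ENSMUST00000144742: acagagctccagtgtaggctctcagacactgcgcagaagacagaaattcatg

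The same arrangement held across the class. M21 still called 239 of the 276 NMD transcripts of the Mettl3 table NMD (86.6%) and 265 of the 309 of the Zfp217 table (85.8%), and among the rest 16 and 11 are now protein coding. The transcripts listed for Rplp0 and Ep400 are examples of such reclassified entries. In those still called NMD, the stop codon lay a median of 375 bases (quartiles 155.5 and 887) before the last exon junction in the Mettl3 table and 328 bases (151 and 655) in the Zfp217 table, beside 334 bases over 7186 NMD transcripts of M21. A distance of at least 50 bases, the rule that defines the class, was met by 98.3% and 98.5%. The stop lay in an exon absent from protein-coding transcripts in 48 Mettl3 transcripts (20.1%) and 51 Zfp217 transcripts (19.2%), close to the 20.0% of M21. In 18 and 24, the stop codon was also that of a protein-coding transcript of the gene, which need not be its usual stop. Of this kind are Cbx1, the heterochromatin protein HP1 beta, and Eif4a2, an RNA helicase of translation initiation.

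**Figure D1:**
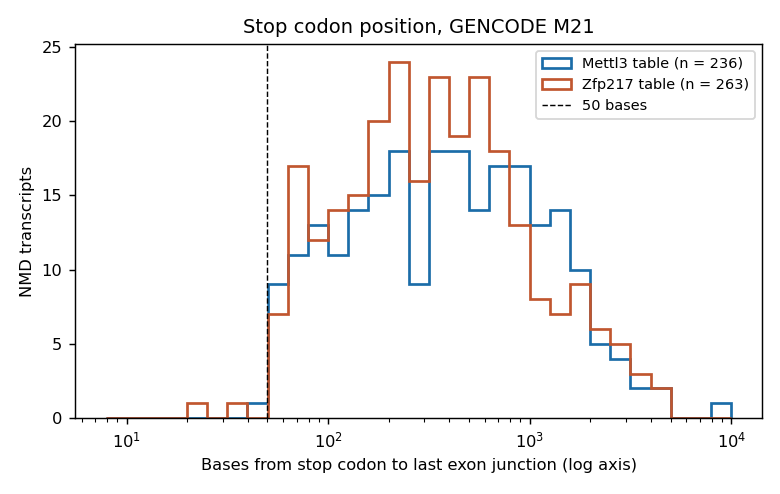
Bases from the stop codon to the last exon junction (log axis) in NMD transcripts of the Mettl3 table (blue) and the Zfp217 table (orange), as the number of transcripts per bin, for those that M21 still calls NMD and whose stop lies before the last junction. Nearly all lie to the right of the dashed line at 50 bases, and the medians over all such transcripts are 375 and 328 bases.

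The Mettl3 table held 276 NMD transcripts of 265 symbols, 2.90% of its entries, and in the Zfp217 table there were 309 of 294 symbols, 3.81%. Of these, 105 stood in both tables, 171 only in the Mettl3 table and 204 only in the Zfp217 table. The shared ones were 38.0% of the Mettl3 list, where 42.4% of all listed transcripts were shared, and 34.0% of the Zfp217 list, where 49.6% of all were. Retained-intron transcripts were close to this, at 39.9% and 37.9%, while protein-coding transcripts stood at 43.9% and 55.4%. Both tables use 1 input library, so membership in one is not independent of membership in the other. NMD transcripts in both tables had higher levels: their median was 2.51 FPKM in the Mettl3 RIP against 1.78 FPKM for those in that table alone, and 2.88 against 1.70 FPKM in the Zfp217 RIP. Those listed only for Zfp217 had a median length of 1227 bases, and those listed only for Mettl3 2143 bases. With shared transcripts included, the Zfp217 and Mettl3 tables had medians of 1482.5 and 2087 bases for NMD transcripts. Over all transcripts the medians differed the same way, at 1576 and 2396 bases.

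NMD transcripts were lower than protein-coding ones in both pulldowns. Their median was 1.98 FPKM in the Mettl3 RIP (quartiles 1.39 and 3.73) and 1.94 FPKM in the Zfp217 RIP (1.36 and 3.35), below the protein-coding medians of 3.21 and 2.63 FPKM. Other classes were lower still. Retained-intron transcripts had medians of 1.68 and 1.59 FPKM. Processed transcripts, a noncoding class of spliced RNAs, had medians of 1.80 and 1.81 FPKM. The highest NMD transcript in the Mettl3 RIP was that of Rplp0, a ribosomal stalk protein gene, at 40.9 FPKM. In the Zfp217 RIP it was that of Eef1b2, a subunit of the elongation factor eEF1B, at 184.9 FPKM. At the estimated depth, 17.8% of NMD transcripts in the Mettl3 RIP and 30.8% in the Zfp217 RIP rested on fewer than 10 fragments. The shares were 17.7% and 30.1% over all transcripts, but only 6.0% and 13.2% over protein-coding ones. Retained-intron transcripts stood at 39.7% and 56.3%, and processed transcripts at 48.5% and 64.2%. Most NMD transcripts had next to nothing in the input: 143 (51.8%) and 167 (54.0%) were listed at 0, and 159 (57.6%) and 191 (61.8%) were under 0.01 FPKM. Over all transcripts the share under 0.01 was 35.8% in the Mettl3 table and 44.2% in the Zfp217 table, and over protein-coding transcripts 27.7% and 37.1%. Processed transcripts came near the NMD value at 55.5% and 60.6%.

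**Figure D2:**
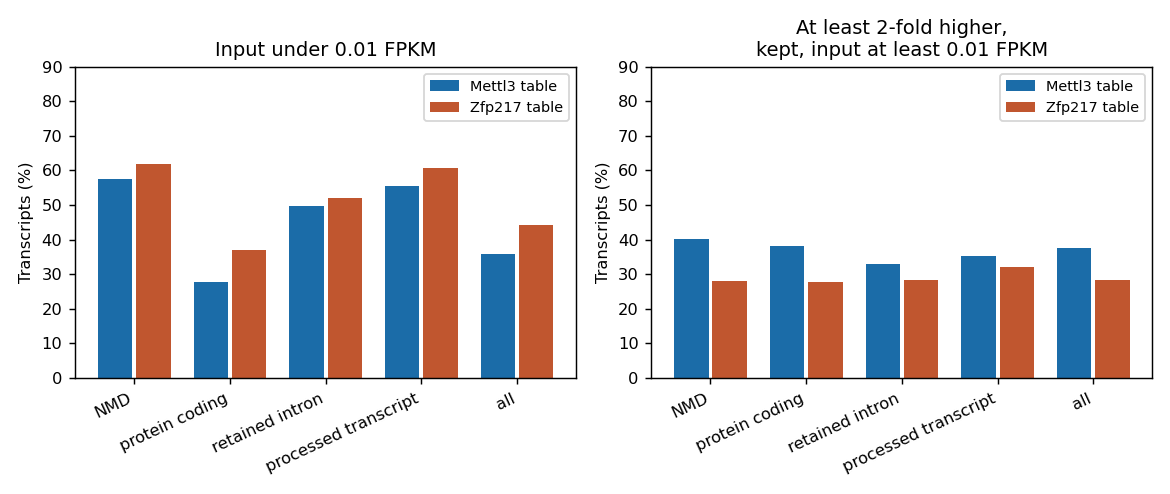
Share of listed transcripts (percent) of each class with an input under 0.01 FPKM (left) and, among those with an input of at least 0.01 FPKM and a mean of at least 1 FPKM, at least 2-fold higher in the RIP (right), for the Mettl3 table (blue) and the Zfp217 table (orange). On the left NMD transcripts stand at 57.6% and 61.8% against 35.8% and 44.2% of all, and on the right at 40.2% and 28.1% against 37.6% and 28.4%.

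The gap to protein-coding transcripts remained at matched RIP levels. Between 1 and 2 FPKM in the RIP, 67.1% of NMD transcripts of the Mettl3 table had an input under 0.01 FPKM against 48.7% of protein-coding ones, and between 2 and 4 FPKM 58.1% against 30.9%. In the Zfp217 table these shares were 72.6% against 54.0%, and 57.1% against 37.2%. Between 1 and 2 FPKM, processed transcripts came near the NMD shares, at 68.0% in the Mettl3 table and 70.5% in the Zfp217 table. Between 2 and 4 FPKM they stood at 47.6% and 55.3%. Equal FPKM does not mean equal fragments, since NMD transcripts were shorter. Their median lengths were 2087 and 1482.5 bases, against 3159 and 2393.5 for protein-coding transcripts. The part of length in the gap was not tested. The share with an input under 0.01 FPKM also moved with the number of annotated transcripts per gene. Protein-coding transcripts of genes with 10 or more transcripts had an input under 0.01 FPKM in 41.9% of cases in the Mettl3 table and 49.2% in the Zfp217 table, against 14.8% and 22.9% for genes with 1 to 4. NMD transcripts of genes with 10 or more stood at 66.3% and 68.3%. The part of read assignment among transcripts of a gene in these zeros was not tested. A similar listing occurred outside the class: the Klf4 protein-coding marker transcript was at 53.6 FPKM in the Mettl3 RIP and 0.00253 FPKM in the input.

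**Figure D3:**
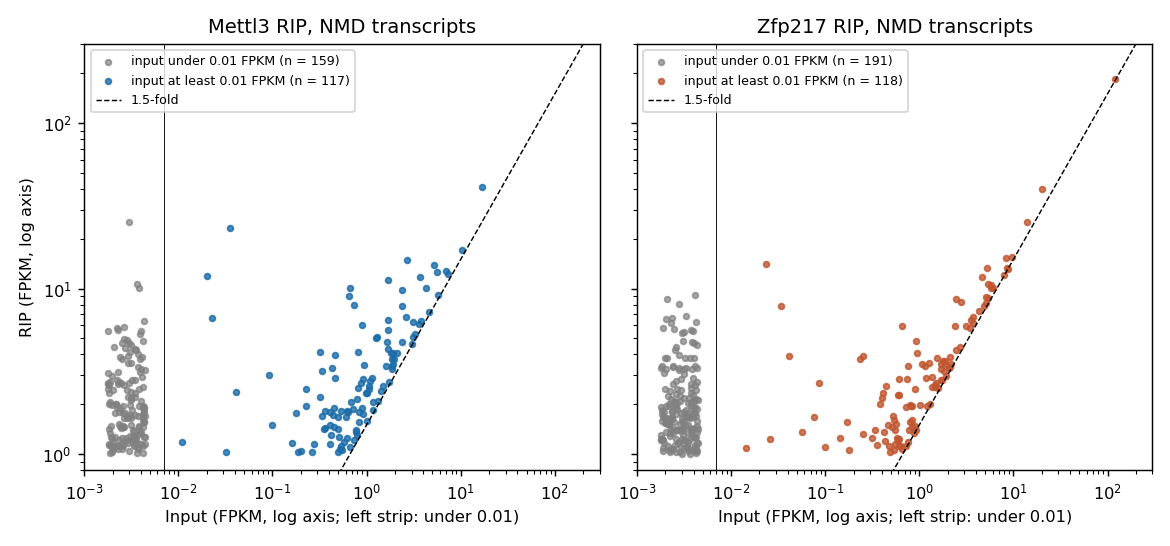
RIP level against input level (FPKM, both log axes) of each NMD transcript, for Mettl3 on the left and Zfp217 on the right, with transcripts under 0.01 FPKM in the input drawn in grey in a strip whose horizontal position has no meaning. The strip holds 159 and 191 of 276 and 309 transcripts, and the others lie on or above the dashed 1.5-fold line at which the tables begin.

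Among NMD transcripts with no input signal, the highest in the Mettl3 RIP was Sumo2, a small ubiquitin-like modifier, at 25.3 FPKM with an input of 0. It stood at 6.31 FPKM in the Zfp217 RIP. H2afz, which encodes the histone variant H2A.Z, was at 10.6 FPKM in the Mettl3 RIP and 6.80 FPKM in the Zfp217 RIP. Others named for Mettl3 were the proteasome subunit Psma3 (10.0 FPKM), the condensin II subunit Ncaph2 (6.39 FPKM), the cyclin Ccnl2 (5.87 FPKM) and Snapin (5.74 FPKM), a SNARE-associated protein. For Zfp217 the highest were the nuclear export receptor Xpo6 (9.08 FPKM), the kinase Wnk1 (8.64 FPKM) and Thrap3 (8.08 FPKM), a factor of transcription and splicing. Xpo6, Wnk1 and Thrap3 were also in the Mettl3 RIP, at 3.15, 2.79 and 3.53 FPKM. Tra2b was at 6.65 FPKM in the Zfp217 RIP and 3.12 FPKM in the Mettl3 RIP, and Rps19, of the small ribosomal subunit, at 6.52 and 5.54 FPKM. No fold is given for these, since the input holds less than 1 estimated fragment. The Cdk4 transcript shown above belongs with them in practice: it was at 11.9 FPKM in the Mettl3 RIP and 14.1 FPKM in the Zfp217 RIP, with 0.0202 and 0.0234 FPKM in the input.

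For the ratio of RIP to input, the log2 of (RIP + 1) over (input + 1) was used on transcripts with a mean of at least 1 FPKM. On this scale 102 of 157 NMD transcripts passed 2-fold in the Mettl3 RIP (65.0%), against 51.1% of all transcripts tested, and 97 of 161 in the Zfp217 RIP (60.2%), against 49.1%. The median log2 ratio was 1.59 and 1.49, and over all transcripts 1.02 and 0.98. This excess came with the input zeros: 65 and 72 of these transcripts had an input under 0.01 FPKM, where passing the filter on the mean already requires passing the 2-fold rule. Among those with an input of at least 0.01 FPKM, 37 of 92 passed 2-fold in the Mettl3 RIP (40.2%, all transcripts 37.6%) and 25 of 89 in the Zfp217 RIP (28.1%, all 28.4%), which is at the background. With an input of at least 1 FPKM, the counts were 15 of 49 (30.6%, all 33.8%) and 7 of 56 (12.5%, all 20.7%), with median plain ratios of 2.01 and 1.78. Folds carry 95% intervals below, exact and from estimated fragments, which cover counting error only. Transcripts with a fold were listed only because it was over 1.5, so the folds lean high. The intervals do not allow for that selection. The interval lay above 1 for 77 of 100 NMD transcripts with a fold in the Mettl3 table (77.0%, all transcripts 80.8%) and for 60 of 101 in the Zfp217 table (59.4%, all 67.3%), so not more often than over all. In a bulk library, fewer cells with a transcript and less of it per cell cannot be told apart.

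Among NMD transcripts of at least 1 FPKM in both the RIP and the input, the furthest above the input in the Mettl3 RIP was that of Ptpn4, a tyrosine phosphatase. It was at 11.2 FPKM in the Mettl3 RIP, 3.50 FPKM in the Zfp217 RIP and 1.69 FPKM in the input. It was 6.64-fold higher in the Mettl3 RIP (95% interval 4.38 to 10.5) and 2.05-fold higher in the Zfp217 RIP (1.26 to 3.42). 4930447C04Rik, which encodes a protein of the synaptonemal complex, was at 14.9 FPKM in the Mettl3 RIP, 4.41 FPKM in the Zfp217 RIP and 2.68 FPKM in the input, 5.54-fold higher for Mettl3 (3.73 to 8.56). Both stood above the input in each RIP, and higher in the Mettl3 RIP. The other transcripts highest for Mettl3 under this limit were 3.17 to 4.06-fold above the input. They came from Mdm2, the cytoplasmic poly(A)-binding protein Pabpc4, the endosomal protein Ankfy1, Cdca2 (which brings phosphatase PP1 to chromosomes), the signalling adaptor Sh2b3 and Dcaf17, a substrate receptor of a Cul4 ubiquitin ligase. Cdca2 and Dcaf17 rested on about 4 input fragments each (3.71 and 4.10), and their intervals reach from 1.31 to 16.6 and from 1.13 to 12.8. Transcripts of lower input reached larger and less certain folds. Slc35b1, a sugar nucleotide transporter family gene picked after its values were seen, was at 9.05 FPKM in the Mettl3 RIP, 5.98 FPKM in the Zfp217 RIP and 0.642 FPKM in the input, 14.1-fold (5.45 to 50.5) and 9.19-fold (3.45 to 33.3) higher.

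Mdm2, the ubiquitin ligase that degrades p53, was the highest for Zfp217 and among the highest for Mettl3 under the same limit of 1 FPKM. It was at 9.75 FPKM in the Mettl3 RIP, 8.62 FPKM in the Zfp217 RIP and 2.40 FPKM in the input, 4.06-fold (2.85 to 5.94) and 3.55-fold (2.46 to 5.26) higher. Fzr1, an activator of the anaphase-promoting complex, was listed for Zfp217 at 8.31 FPKM against 2.80 FPKM in the input, 2.97-fold higher (1.95 to 4.65). Sf1, the protein that first recognises the intron branch point, was at 13.9 FPKM in the Mettl3 RIP, 13.3 FPKM in the Zfp217 RIP and 5.18 FPKM in the input. Its folds were 2.68 (2.13 to 3.41) and 2.53 (1.99 to 3.24), nearly the same in both. The ribosomal protein transcript Rpl27a was 2.51-fold higher for Zfp217 (1.21 to 5.70), the autophagy gene Becn1 3.22-fold (1.13 to 11.7) and the ATP synthase subunit Atp5a1 2.48-fold (1.11 to 6.15), all on 4.63 to 10.2 estimated input fragments. Pigl, an enzyme of GPI anchor synthesis, was 2.97-fold higher, with no interval because its length was not matched. A Papola transcript, of poly(A) polymerase alpha, was 2.77-fold higher (1.68 to 4.76), and is not the one whose sequence is shown.

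The 105 NMD transcripts in both tables varied around equal levels in the pulldowns. After scaling by the shared input, the Mettl3 RIP level was 1.02 times the Zfp217 RIP level at the median (quartiles 0.797 and 1.49), beside 1.08 over all 4026 shared transcripts. The level was higher in the Mettl3 RIP for 54 and in the Zfp217 RIP for 51, and it differed by at least 2-fold in 10 each way. Together these were 19.0% of the 105, close to the 16.8% of all shared transcripts. Of the 105, 63 had an input under 0.01 FPKM in both tables and 20 reached 1 FPKM in the input of both. In 38 of the 63 that passed the filter on the mean in both tables, the ratio was at least 2-fold in both, against 38.5% of all shared transcripts so filtered, and in 9 of the 34 with an input of at least 0.01 FPKM, against 21.4%. The first count includes transcripts with an input under 0.01 FPKM, which pass 2-fold by construction.

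**Figure D4:**
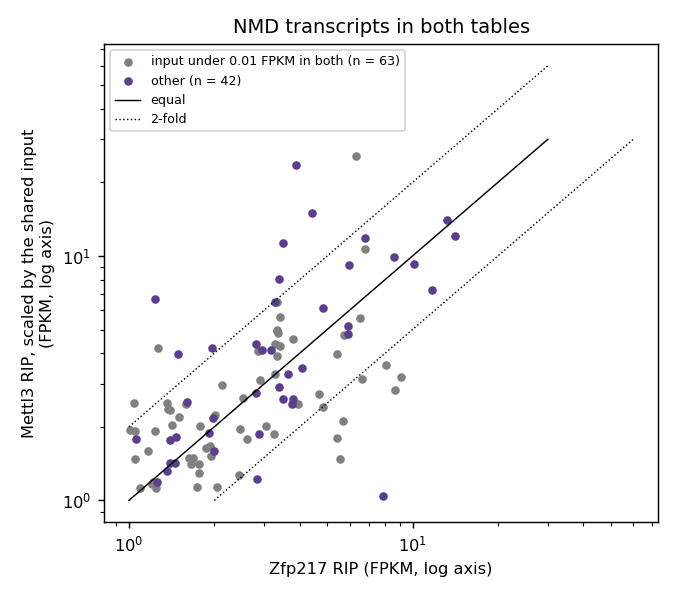
Level in the Mettl3 RIP, scaled by the shared input, against level in the Zfp217 RIP (FPKM, both log axes) for the 105 NMD transcripts in both tables, in grey where the input was under 0.01 FPKM in both (63). Points scatter around the solid line of equal level, and 10 lie beyond the dotted 2-fold line on each side.

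Among shared transcripts with an input of at least 0.01 FPKM, the furthest towards Mettl3 was Pcnp, a nuclear protein, at 23.3 FPKM in the Mettl3 RIP and 3.89 FPKM in the Zfp217 RIP, a ratio of 6.06 after scaling. Slc6a8, the creatine transporter, was at 6.62 and 1.24 FPKM, a ratio of 5.40. The input was 0.0357 FPKM for Pcnp and 0.0229 FPKM for Slc6a8 in the Mettl3 table. 4930447C04Rik, Ptpn4 and the zinc finger gene Zfp846 followed, at ratios of 3.41, 3.24 and 2.67. Furthest towards Zfp217 was Mrpl13, of the mitochondrial large ribosomal subunit, at 7.85 FPKM in the Zfp217 RIP and 1.03 FPKM in the Mettl3 RIP. The latter rests on 5.79 estimated fragments. Mtf2, an accessory subunit of Polycomb complex PRC2, was at 2.84 FPKM in the Zfp217 RIP and 1.21 FPKM in the Mettl3 RIP, on 8.70 and 5.10 fragments. For Rpl27a, the dioxygenase gene Alkbh1 and the splicing factor Srsf1, the level was higher in the Zfp217 RIP by under 2-fold, at ratios of 0.621, 0.651 and 0.663.

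Whether the normal message of the gene came down as well was read from its protein-coding transcripts. For Mettl3, 128 of 265 genes with an NMD transcript (48.3%) also list a protein-coding transcript, and for Zfp217 122 of 294 (41.5%). Genes with a listed retained-intron transcript stood at 47.2% and 45.1%, and those with a processed transcript at 44.7% and 39.3%. Of the 137 Mettl3 genes without one, 96 list only NMD transcripts, and of the 172 Zfp217 genes 109 do. Not being listed does not mean that the message was absent: for 36 and 58 of these genes a protein-coding transcript is in the other table, and its input there reached 1 FPKM in 12 and 38. Levels and input zeros of NMD transcripts with and without a listed protein-coding partner lay close together. In the Mettl3 table their median RIP level was 1.99 FPKM with a partner and 1.96 FPKM without, and 57.9% and 57.3% had an input under 0.01 FPKM. In the Zfp217 table the medians were 2.02 and 1.79 FPKM and the shares 65.1% and 59.4%.

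Of the NMD transcripts whose gene lists no protein-coding transcript, and which had an input of at least 0.01 FPKM, Rplp0 was highest in the Mettl3 RIP, at 40.9 FPKM against 16.7 FPKM in the input (2.45-fold, 1.87 to 3.25). Pcnp came next, then Eif4a2 at 17.1 against 10.3 FPKM (1.66-fold, 1.32 to 2.09) and 4930447C04Rik. Ahcyl1, a regulator of the IP3 receptor, was at 12.5 FPKM against 5.65 FPKM (2.21-fold, 1.77 to 2.79), and Ankfy1 at 11.7 FPKM. In the Zfp217 RIP they were Eef1b2 at 184.9 FPKM against 120.6 FPKM (1.53-fold, 1.35 to 1.74), Cbx1 at 39.7 against 20.2 FPKM (1.97-fold, 1.70 to 2.29) and the purine synthesis enzyme Gart at 15.2 against 8.43 FPKM (1.80-fold, 1.48 to 2.21). Mrpl15, of the mitochondrial ribosome, Sf1 and a second Psma3 transcript followed at 13.3, 13.3 and 12.1 FPKM. All of these except Pcnp had an input above the median of NMD transcripts that reached 0.01 FPKM there, which was 0.819 FPKM in the Mettl3 table and 0.909 FPKM in the Zfp217 table. Genes of ribosomal proteins, Eef1b2 and H2afz have near-identical pseudogene copies, and the counting could have split their reads, so their values are uncertain.

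Where both were listed, the NMD transcript was usually the lower of the pair. Its RIP level was 0.582 times that of the highest protein-coding transcript at the median of 133 NMD transcripts in the Mettl3 table (quartiles 0.298 and 1.04), and 0.659 times over 129 in the Zfp217 table (0.349 and 1.05). It was the higher one in 35 and 40 cases. The protein-coding transcript was picked as the highest of several, which lowers this ratio. In 51 Mettl3 pairs the NMD input was under 0.01 FPKM and the protein-coding input was not, against 13 the other way round, and for Zfp217 the numbers were 42 and 12. Where both inputs were at least 0.01 FPKM, the ratios of RIP to input were close: the median log2 ratio was 0.81 for the NMD and 0.81 for the protein-coding transcripts over 43 Mettl3 pairs, and 0.65 and 0.67 over 33 Zfp217 pairs. The NMD transcript had the higher ratio in 24 of 43 and 17 of 33. Both transcripts of such a pair are listed only because each was over 1.5-fold above the input. Their plain ratios share this floor, so the closeness cannot show that the classes behave alike.

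**Figure D5:**
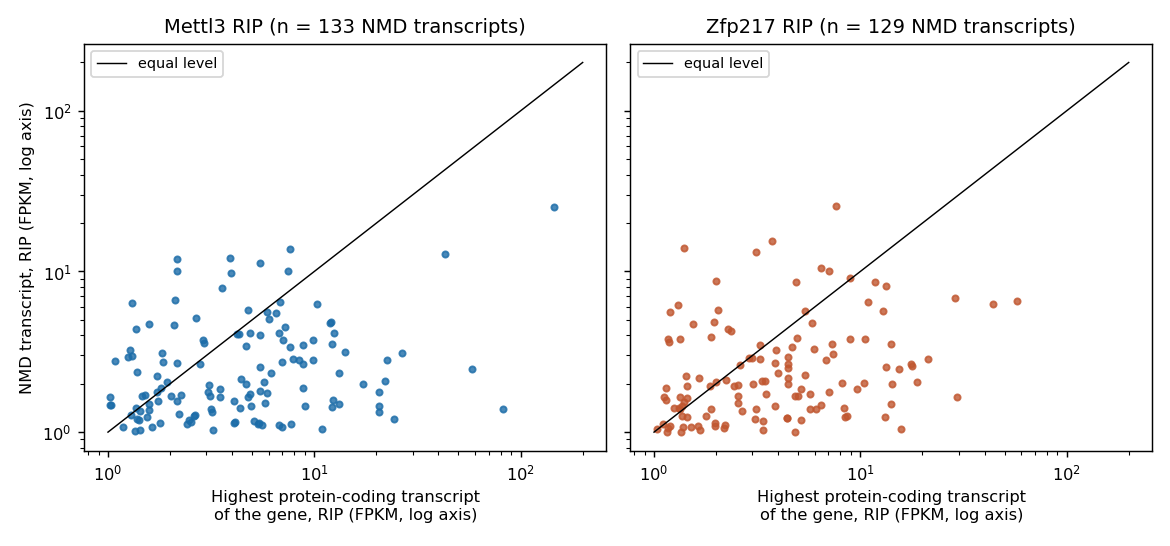
RIP level of each NMD transcript against that of the highest listed protein-coding transcript of its gene (FPKM, both log axes), for Mettl3 (left, 133 transcripts) and Zfp217 (right, 129). Most points lie below the line of equal level, with 35 and 40 above it.

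With both inputs at least 1 FPKM, the NMD transcript exceeded the protein-coding one most for Ermp1, an endoplasmic reticulum metallopeptidase, in the Mettl3 RIP: 10.1 against 2.15 FPKM, a ratio of 4.70. Mdm2 followed at 9.75 against 3.94 FPKM, a ratio of 2.48, and its ratio in the Zfp217 RIP was 1.78. Dcaf17 (2.21) and Ptpn4 (2.06) were next in the Mettl3 RIP, ahead of the chaperone Erp29 and Phrf1. In the Zfp217 RIP the E3 ligase gene Rnf10 led at 25.4 against 7.62 FPKM, a ratio of 3.33. Cenpa was at 10.6 against 6.45 FPKM, a ratio of 1.64, and the RNA chaperone Ssb at 10.1 against 7.06 FPKM, a ratio of 1.44. At the other end stood Pml, which organises nuclear bodies, with ratios of 0.128 in the Mettl3 RIP and 0.139 in the Zfp217 RIP. The ubiquitin-conjugating enzyme Ube2g1 was at 0.176 and Papola at 0.298 in the Mettl3 RIP. In the Zfp217 RIP, the RNA-binding protein Hnrpdl was at 0.247 and Thrap3 at 0.192, for another transcript than the Thrap3 one named above.

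Genes whose products handle RNA were counted from gene lists. Of all 4576 symbols with an NMD transcript in M21, 4.92% had an NMD transcript listed for Mettl3 and 5.55% for Zfp217, and the list counts below can be read beside these shares. The 4576 symbols were not limited to genes expressed in these cells. A list above these shares therefore does not show an excess. Lists of a few genes allow no ranking, and no list was tested. Among serine-arginine splicing factors and related proteins, 18 have an NMD transcript in M21. NMD transcripts of 3 were listed for Mettl3 (Srrm1, Srsf1 and Tra2b) and of 6 for Zfp217 (Luc7l, Luc7l2, Srsf1, Srsf11, Srsf5 and Tra2b). Srsf5 was at 13.1 FPKM in the Zfp217 RIP against 8.67 FPKM in the input, 1.51-fold (0.999 to 2.33), and M21 no longer calls that transcript NMD. Among hnRNPs, splicing kinases and other splicing regulators, NMD transcripts of 4 of 42 were listed for Mettl3 and of 10 of 42 for Zfp217, where Hnrpdl was listed besides, under a symbol not in M21. The input was under 0.01 FPKM for 3 of these 4 and 8 of these 11 transcripts. Hnrnpd, an AU-rich element binding protein, was at 5.69 FPKM in the Zfp217 RIP and 2.09 FPKM in the Mettl3 RIP, with an input of 0. The difference between the antibodies in these counts was not tested. Of 12 well-known NMD targets with an NMD transcript in M21, 3 were listed for Mettl3 (Azin1, Eif4a2 and Tra2b) and 1 for Zfp217 (Tra2b). Azin1 was at 6.30 FPKM in the Mettl3 RIP against 3.14 FPKM in the input, 2.01-fold higher (1.53 to 2.66).

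Of 5 factors of the NMD pathway itself with an NMD transcript in M21, 0 had one listed for Mettl3 and 1 for Zfp217. The latter was Magohb, a core protein of the junction complex, at 1.03 FPKM on 2.28 estimated fragments. Transcripts of any class were listed for 9 of 25 factors in the Mettl3 table and 8 in the Zfp217 table, with 5 of 14 and 1 of 7 tested at least 2-fold higher, beside the backgrounds of 51.1% and 49.1%. The release factor Gspt1 had a transcript at 8.04 FPKM in the Mettl3 RIP and 4.35 FPKM in the Zfp217 RIP against 1.84 FPKM in the input. It was 4.38-fold (3.10 to 6.35) and 2.35-fold (1.60 to 3.50) higher. Other Gspt1 transcripts were listed for Mettl3 only. The most abundant was at 33.1 FPKM against 21.6 FPKM in the input, 1.53-fold higher (1.16 to 2.04). Another was at 16.2 against 4.21 FPKM, 3.84-fold higher, with no interval. The kinase Smg1, which phosphorylates Upf1, was 1.60-fold higher for Mettl3 (1.47 to 1.74), and Upf2 1.52-fold for Zfp217 (1.23 to 1.89). RNA decay and exosome genes had NMD transcripts of 2 of 24 listed in each table, among them the deadenylase subunits Cnot6l (1.20 FPKM, Mettl3) and Cnot2 (1.68 FPKM, Zfp217).

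Among genes of m6A, 1 of 5 had an NMD transcript listed for Mettl3 and 0 for Zfp217. It was Ythdc1, the nuclear m6A reader, at 5.32 FPKM in the Mettl3 RIP against 3.30 FPKM in the input, 1.61-fold higher (1.24 to 2.12). Of pluripotency factors 1 of 7 was listed for Mettl3, the PRC2 partner Jarid2, at 3.37 FPKM with an input of 0, and 0 for Zfp217. Chromatin regulators had 3 and 3 of 36, and others were listed whose symbol matched no NMD transcript in M21, such as Ep400 and Mll1. A gene renamed in M21 also fails this match, so it does not show that M21 has no NMD transcript of Mll1. Mll1, a histone H3 methyltransferase, was at 4.78 FPKM in the Mettl3 RIP against 1.66 FPKM, 2.87-fold higher (1.74 to 5), and Ep400 was 1.56-fold (1.05 to 2.38) and 1.59-fold (1.04 to 2.46) higher. Cell cycle and DNA repair genes had 10 and 8 of 48. Of these, Rad51c, a gene of homologous recombination, was 1.69-fold higher in the Mettl3 RIP (0.929 to 3.24), where the interval includes 1. Cytosolic ribosomal proteins had 3 and 3 of 19, and translation factors and tRNA synthetases 5 and 2 of 30.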

How the data were processed

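RNA immunoprecipitation sequencing gave 3 libraries of CCE cells. The tables deposited by the authors, 1 for each antibody, hold FPKM of the RIP and of the shared input library per Ensembl transcript, the transcript's class, and a log2 fold change that differs by at most 0.00192 from that of the deposited FPKM values. Per the submitters' processing notes, the tools were TopHat2 2.0.8, Bowtie2, Cuffdiff, Cufflinks and CASAVA 1.4, with build mm9. What each did, and its settings, is not given in the sources used here. FPKM per transcript depends on how reads are assigned among transcripts of a gene. The input in the Mettl3 table was 0.989 times that in the Zfp217 table, so ratios were taken within a table.

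The log2 ratio used a pseudocount of 1 FPKM and a mean of at least 1 FPKM, and understates the ratio of low transcripts. Fragment numbers were estimated from short noncoding RNAs, whose values were taken to be whole multiples of 1 read. The depths, and the 138 bases taken off each length, were searched for and kept because they made the most values whole. They made 15 of 20, 18 of 21 and 7 of 8 values whole (within 0.05) for Mettl3 RIP, Zfp217 RIP and input. These counts were the target of the search, so they do not check the estimate. The estimate was not tested against fragment counts, since FPKM values carry none. For the input it rests on 8 short RNAs, and all fragment numbers and intervals depend on it. Folds are given only where the input was at least 0.01 FPKM and 1 estimated fragment, with exact 95% intervals conditional on the total. Stop codons, lengths and sequences came from GENCODE M21 (GRCm38). Python 3.11.15 with pandas 2.3.3, scipy 1.17.1 and matplotlib 3.10.9 was used.

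Named transcripts were, per RIP, the 8 highest ratios with both values at least 1 FPKM; the 6 highest RIP levels with an input under 0.01 FPKM, and without a listed protein-coding transcript; the 6 highest and 4 lowest NMD to protein-coding levels; the 5 furthest apart each way; and up to 4 per gene list. Others were named after their values were seen, and some results are not reported here. The members and lists were chosen with earlier results of these data known. Alternatives varied the pseudocount, the filters, the class source and the matching of genes.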

Additional observations from a re-analysis of the deposited data

How the results depend on the processing

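The counts of NMD transcripts at least 2-fold higher depended on the filters. Without a filter on the mean they were 199 for Mettl3 and 221 for Zfp217, in place of 102 and 97. Without transcripts under 0.01 FPKM in the input they were 37 and 25, and with 1 FPKM or more in the input 15 and 7. The 105 NMD transcripts in both tables became 42 when both inputs had to reach 0.01 FPKM, and 54 with a RIP level of at least 2 FPKM in both. The 122 Zfp217 genes with a listed protein-coding transcript became 78 when its input had to be at least 0.01 FPKM. Among 67 named log2 ratios, a pseudocount of 0.1 FPKM raised all 67, by 0.29 at the median and 3.27 at most, and kept 45 within their counting interval. Limiting the class to transcripts that M21 also calls NMD, or counting inputs of exactly 0 or under 0.1 FPKM, moved the counts it was applied to by less than 1.5-fold. No paired analysis was possible because each group has 1 library, and no library could be left out. FPKM values carry no counts, so depth is an estimate, and low transcripts have wide intervals.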

Other observations

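How the early stop arises was set beside the values. In the Mettl3 table, NMD transcripts whose stop lies in an exon absent from protein-coding transcripts had an input under 0.01 FPKM in 22 of 48 cases (45.8%), against 74 of 117 (63.2%) for a stop in an exon with the same ends as in a protein-coding transcript. In the Zfp217 table the numbers were 33 of 51 (64.7%) and 83 of 127 (65.4%), so the gap was not seen there. Transcripts with a mean of at least 1 FPKM were also counted. With the stop in an exon absent from protein-coding transcripts, 14 of 27 passed 2-fold in the Mettl3 RIP. In the Zfp217 RIP 13 of 23 did. With the stop in a shared exon the counts were 46 of 66 and 49 of 73, beside 51.1% and 49.1% of all transcripts. These counts include transcripts with an input under 0.01 FPKM, which pass 2-fold by construction. The differences were not tested.

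Transcripts whose stop codon is also that of a protein-coding transcript, and which carry a junction after it, passed 2-fold in 4 of 10 cases for Mettl3 and 4 of 13 for Zfp217, with median log2 ratios of 0.76 and 0.74. These are few, beside the 51.1% and 49.1% of all transcripts. The other NMD transcripts passed in 87 of 126 and 86 of 127 cases, with medians of 1.75 and 1.62. Their input was under 0.01 FPKM in 58.8% and 65.6% of cases, against 9 of 18 and 12 of 24 where the stop is shared with a protein-coding transcript, and those that also have a mean of at least 1 FPKM pass by construction. More than 1 NMD transcript was listed for 10 genes in the Mettl3 table and for 15 in the Zfp217 table. In Ptpn4, 3 were listed for Mettl3, at 11.2, 4.04 and 2.56 FPKM, and the input was 0 for the lower ones.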
